A study of Arabidopsis thaliana with 40 samples.

Results

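GRP7 (AT2G21660) and GRP8 (AT4G39260), the closely related glycine-rich RNA-binding proteins also called CCR2 and CCR1, were followed at the level of messenger RNA through growth, ethanol pretreatment and freezing of Arabidopsis thaliana (thale cress). They are 2 of the 27416 genes in the count table. They were picked by name with their levels across the 5 groups of the study already known, so those levels and the changes between groups are given as a description with no p-value. Tests are given for other genes and for how GRP7 and GRP8 varied together within a group. The lists of other genes were also chosen with earlier results of these data known, so the shares called in a list are descriptions.

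Shoot libraries were made by Lasy-Seq, which pools many samples early in RNA-seq library preparation, from 200 ng of total RNA, with 8 libraries in each group. All plants grew at 22 °C in potted clay granules under 16 h light and 8 h dark. Starting plants were taken at an age of 14 days without pretreatment. The water and ethanol groups were taken after a further 6 days in which the base of each pot was dipped in water or 20 mM ethanol. The frozen water and frozen ethanol groups were kept at -4 °C overnight in rotating pots after the same pretreatment, were returned to the growth room, and are labelled with a time of 2 h, whose starting point the labels leave unclear. Neither the accession nor the hour of harvest is stated, and no mutant or transgene is named. Whether each replicate was its own plant or pot is not stated either, so the spread that enters each p-value may be technical.

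Both proteins carry an RNA-recognition motif followed by a glycine-rich tail. Their transcripts oscillate with the circadian clock, peak towards the evening and are known for induction by cold. GRP7 binds its own transcript and that of GRP8 and shifts their splicing towards unproductive forms that nonsense-mediated decay removes, a feedback loop beneath the core clock. In Arabidopsis GRP7 also promotes flowering and has a role in immunity.

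The sequence just before each gene is shown because it holds the letters AAAATATCT, the evening element that is common in promoters of evening-expressed Arabidopsis genes. In the RefSeq annotation of TAIR10.1, GRP7 lies on the minus strand of chromosome 2 (chr2:9265084-9266557) and GRP8 on the minus strand of chromosome 4 (chr4:18273829-18275216), each with 2 exons. The 250 bases before the annotated start are chr2:9266558-9266807 for GRP7 and chr4:18275217-18275466 for GRP8, printed 5′ to 3′ on the minus strand with evening elements of either orientation in capitals.
GRP7: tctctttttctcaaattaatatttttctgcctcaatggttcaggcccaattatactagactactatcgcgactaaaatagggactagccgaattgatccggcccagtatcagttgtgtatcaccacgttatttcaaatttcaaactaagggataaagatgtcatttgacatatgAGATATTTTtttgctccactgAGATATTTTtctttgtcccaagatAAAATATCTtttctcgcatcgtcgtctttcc
GRP8: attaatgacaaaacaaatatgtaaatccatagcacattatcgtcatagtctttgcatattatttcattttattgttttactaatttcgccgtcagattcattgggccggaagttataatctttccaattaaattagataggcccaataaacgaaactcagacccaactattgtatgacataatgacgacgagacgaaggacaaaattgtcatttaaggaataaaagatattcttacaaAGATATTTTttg
GRP7 has 3 evening elements in this window and GRP8 has 1. Those of GRP7 begin 76, 55 and 31 bases before the start, the first pair in reverse orientation, and that of GRP8 begins 12 bases before the start in reverse orientation. Among 27443 windows of the same length before annotated protein-coding genes, 2.36% held at least 1 evening element on either strand, and 3 windows, or 0.0109%, held at least 3. The CCA1-binding site AAAAATCT (in 6.69% of windows), the G-box CACGTG (6.49%) and the C-repeat core CCGAC (12.0%) had no match on either strand of these windows. None of the 4 motifs contains another. A match describes letters only.

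The coding sequences, of 531 bases in GRP7 and 510 in GRP8, were identical at 77.8% of 504 aligned positions. The longest stretch common to both transcripts is shown because a read that lies wholly within it cannot be assigned to either gene. It is 39 bases long, at chr2:9265835-9265873 and chr4:18274509-18274547 of TAIR10.1.
Shared stretch: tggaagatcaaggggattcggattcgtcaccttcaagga
No window of 50 bases was found in both transcripts. The sources do not say how the counting treated strand or reads with several matches, so some exchange of reads between the genes is possible. No other annotated gene overlapped GRP7 or GRP8. RefSeq lists 2 transcripts for GRP7 and 4 for GRP8, and counts per gene do not separate productive from unproductive forms.

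Library totals ran from 2098593 to 9211896 counts, and the lowest counts in a library were 953 for GRP7 and 647 for GRP8. Water replicate 6 and ethanol replicate 7 had the lowest mean correlation with the other libraries of their groups (0.927 each). Levels are given as CPM, the count relative to the TMM-scaled library total. All 6 leaf markers were detected and summed to between 59480 and 89249 CPM. Of 8 root markers, 1 or 2 averaged at least 1 CPM in a group and none was at 0 in every library. Their sum, mostly PYK10, was 65.1 to 127 CPM in starting plants and 12.0 to 66.7 CPM in the other groups, and its part in the results was not tested. In whole shoots, fewer cells of a type and less RNA per cell cannot be told apart.

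GRP7 was lowest in starting plants and several times higher in every group sampled later. In starting plants it ranged from 223.3 to 389 CPM with a median of 278 (mean 285 ± 59.3, SD, n = 8). In water plants it ranged from 2243 to 3053 CPM with a median of 2453 (mean 2509.9 ± 260.4). In ethanol plants it ranged from 2618 to 2989 CPM with a median of 2798 (mean 2814 ± 116). The ethanol range lay inside the water range, and 6 water libraries were below all ethanol libraries.

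Frozen plants were close to these levels. GRP7 ranged from 2032 to 2322.5 CPM in frozen water plants, with a median of 2141 (mean 2175 ± 104, n = 8). It ranged from 2357 to 2912 CPM in frozen ethanol plants, with a median of 2584 (mean 2596 ± 175). The ascending order of means was starting, frozen water, water, frozen ethanol and ethanol. From frozen water upwards the ranges of neighbours in this order overlapped, and all later libraries were above all starting libraries.

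GRP8 followed the same order over a smaller span. It ranged from 226.1 to 270.5 CPM in starting plants with a median of 256 (mean 251 ± 17.0, SD, n = 8). In water plants it ranged from 613 to 801 CPM with a median of 731 (mean 723 ± 59.6), and in ethanol plants from 817 to 914 CPM with a median of 848 (mean 852 ± 33.7). The lowest ethanol library was above the highest water library, as was the case for 0.585% of the 16579 genes tested.

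In frozen water plants GRP8 ranged from 577 to 673 CPM with a median of 618 (mean 622 ± 32.0, n = 8). In frozen ethanol plants it ranged from 711 to 862 CPM with a median of 774 (mean 782 ± 58.0). Neighbours in the order overlapped here too, from frozen water upwards. All 8 frozen ethanol libraries were above all 8 frozen water libraries for GRP7 and for GRP8, which held for 0.277% of tested genes. Since levels across these groups chose the genes, nothing is read from these shares.

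**Figure D1:**
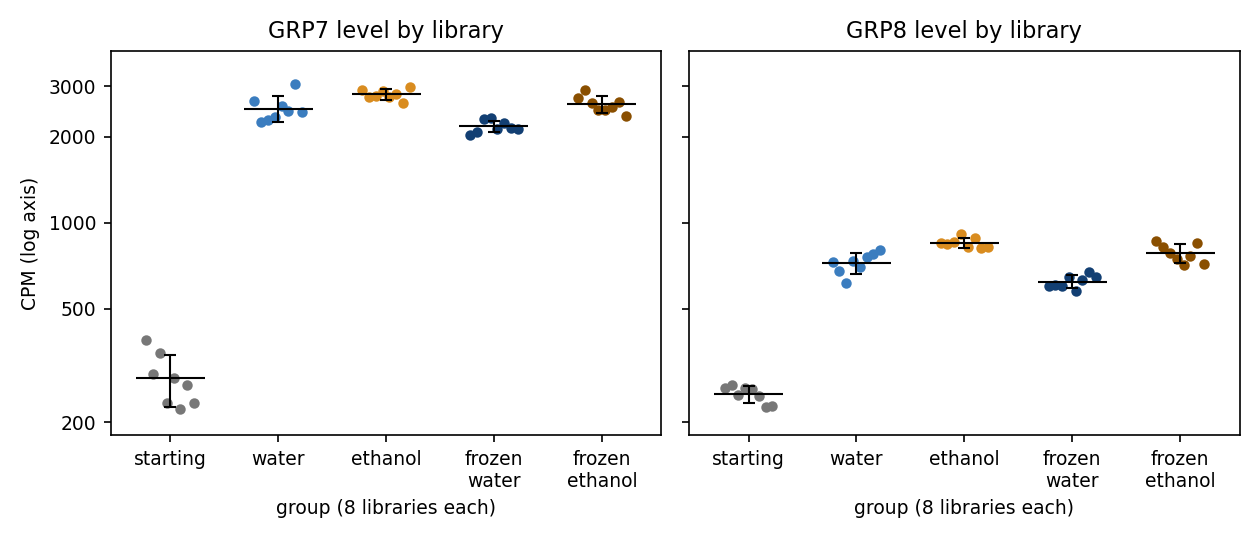
CPM of GRP7 and GRP8 (log axis) in each of the 8 libraries of the 5 groups, with mean and SD. Starting libraries lie at 223.3 to 389 CPM for GRP7 and 226.1 to 270.5 CPM for GRP8, below every other library.

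Over the 6 days on water GRP7 differed by 3.14 ± 0.077 on the log2 scale (SE), or 8.83-fold, and GRP8 by 1.52 ± 0.053, or 2.88-fold. Over the 6 days on ethanol the values were 3.31 ± 0.078 for GRP7, or 9.90-fold, and 1.76 ± 0.054 for GRP8, or 3.39-fold. The comparisons share the starting libraries. By size of increase GRP7 was 27th of 16579 tested genes on water and 38th on ethanol, and GRP8 was 286th and 266th. All 8 later libraries lay above all 8 starting libraries, which held for 4.02% of tested genes on water and 5.6% on ethanol. In these differences the plants' age, the dipping of pots and any change in sampling hour cannot be told apart.

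Per kilobase of the longest annotated transcript, 1165 bases for GRP7 and 1105 for GRP8, the genes started near the same level. In starting plants GRP7 stood at 245 ± 50.9 CPM per kilobase and GRP8 at 227.6 ± 15.4 (SD, n = 8). In water plants GRP7 stood at 2154 ± 223.5 CPM per kilobase and GRP8 at 655 ± 53.9. Among 16417 genes with a transcript length, GRP7 was at place 519 by level per kilobase in starting plants, 60 in water plants and 54 in ethanol plants. GRP8 was at places 553, 177 and 124. Whether counts by this library method rise with transcript length was not tested. If they do not, division by length places short transcripts too high.

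The ratio of GRP8 to GRP7 within a library, which does not depend on scaling between libraries, differed between starting plants and all others. Its log2 value per kilobase ranged from -0.48 to 0.26 in starting libraries, with a mean of -0.083 ± 0.27 (SD, n = 8). The mean was -1.72 ± 0.13 on water and -1.65 ± 0.067 on ethanol, and after freezing -1.73 ± 0.087 and -1.66 ± 0.063. Per kilobase GRP7 was 1.06-fold of GRP8 in starting plants and 3.13-fold to 3.32-fold of it in the other 4 groups, whose ranges overlapped. Without division by length the mean log2 ratio was -0.16 in starting plants and -1.79 in water plants. The ratio also spread most in starting libraries, where the coefficient of variation was 20.8% for GRP7 and 6.78% for GRP8.

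**Figure D2:**
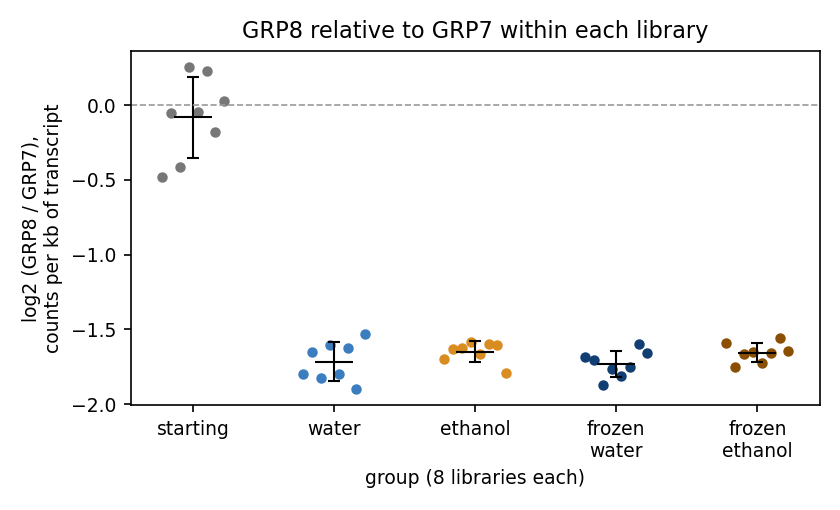
Log2 of GRP8 over GRP7 counts per kilobase of transcript in each library, with mean and SD. Starting libraries lie between -0.48 and 0.26, and the other 32 libraries between -1.90 and -1.53.

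Ethanol plants had slightly more of both transcripts than water plants. Before freezing the difference was 0.17 ± 0.071 (log2, SE) for GRP7, or 1.12-fold, and 0.24 ± 0.052 for GRP8, or 1.18-fold. After freezing it was 0.26 ± 0.071 for GRP7, or 1.19-fold, and 0.33 ± 0.052 for GRP8, or 1.26-fold. By size of increase GRP7 was 4678th of 16579 tested genes before freezing and 2528th after, and GRP8 was 3515th and 1734th. With the trend of each library with transcript length removed, GRP7 stood at 0.17 and 0.24 and GRP8 at 0.24 and 0.31 before and after freezing. Between ethanol and water plants, the ethanol and any difference in sampling hour cannot be told apart.

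Frozen plants had slightly lower counts of both genes, and this difference moved when a trend with transcript length was removed. After water it was -0.21 ± 0.071 for GRP7 and -0.22 ± 0.052 for GRP8, and after ethanol -0.12 ± 0.071 and -0.12 ± 0.052. In all 16 frozen libraries log2 CPM, relative to each gene's mean, rose with log2 transcript length (slope 0.0805 to 0.236), and in all 24 unfrozen libraries the slope was negative (-0.175 to -0.0209). With this trend removed the differences after water became -0.058 ± 0.071 for GRP7 and -0.057 ± 0.050 for GRP8. Those after ethanol became 0.0077 ± 0.071 and 0.011 ± 0.049. The trend separates all frozen from all unfrozen libraries, so removing it cannot tell a length bias from a response to freezing. The difference of both freezing effects was 0.090 ± 0.10 for GRP7 and 0.096 ± 0.073 for GRP8. Between frozen and unfrozen plants, the freezing, the added night and any change in sampling hour cannot be told apart.

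**Figure D3:**
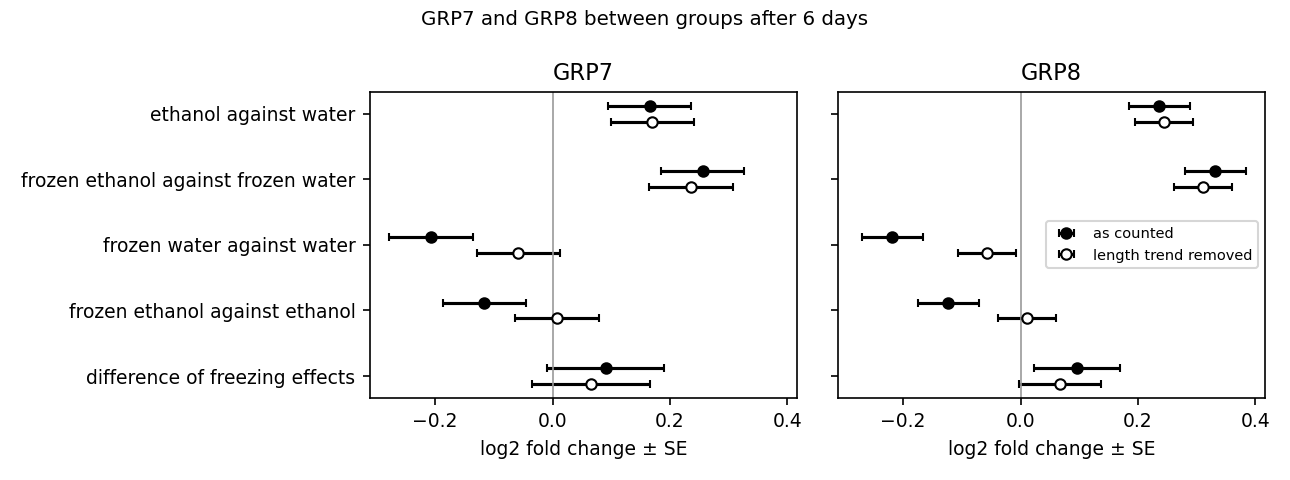
Log2 fold changes ± SE of GRP7 and GRP8 between groups, as counted (filled) and with each library's transcript length trend removed (open). The ethanol differences lie at 0.17 to 0.33 as counted, and the freezing differences move from between -0.22 and -0.12 to between -0.058 and 0.011.

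Within groups the correlation of GRP7 and GRP8 was positive in all 5 and passed the test in frozen ethanol plants by rank. Over the 8 libraries of each group, Pearson's r of log2 CPM was 0.37 in starting, 0.53 in water, 0.32 in ethanol, 0.25 in frozen water and 0.81 in frozen ethanol plants. In frozen ethanol plants the two-sided exact permutation p of r was 0.0145 (0.0727 adjusted over the 5 groups by Benjamini-Hochberg). Spearman's rho there was 0.905 with an exact permutation p of 0.00456 (adjusted 0.0228). In the other groups rho was 0.357 to 0.524, and adjusted exact permutation p-values were 0.444 to 0.537 for r and 0.304 to 0.389 for rho. Without the 2 libraries farthest from the GRP7 median, r was 0.336, 0.388, 0.624, 0.405 and 0.926 in the same order. With the length trend removed, rho in frozen ethanol plants was 0.833 and no longer passed the test (adjusted exact permutation p = 0.0769), and r without the 2 farthest libraries was 0.786 (adjusted exact permutation p = 0.160). Both genes share the scaling of their library, and a difference of the correlation between groups was not tested.

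The genes most like GRP7 over the 40 libraries were found by Pearson's r of log2 CPM among 8788 other genes averaging at least 10 CPM. They were AT1G56300, a DnaJ-domain chaperone gene (r = 0.988), RbcX1, a Rubisco assembly chaperone (0.988), PORB, an enzyme of chlorophyll synthesis (0.985), ACD32.1, an alpha-crystallin domain gene (0.985), UBQ3, a polyubiquitin gene (0.985), and BGLU44, a glucosidase gene (0.983). AT1G56300 averaged 8.87 CPM in starting plants and 110.3 CPM in water plants, and PORB 230.6 and 1203 CPM. GRP8 was the 8th most like GRP7 and GRP7 the 3rd most like GRP8 (r = 0.981). For GRP8 the others among the 6 nearest were AT4G30660, of a low temperature and salt responsive family (0.984), AT5G23240, a DnaJ-domain gene (0.983), HMGB2, a high mobility group gene (0.979), ACD32.1 (0.978) and the clock gene ELF4 (0.978). The points share their groups, and the separation of starting plants from the rest enters every value. Of these neighbours RbcX1, PORB and AT4G30660 had 1 evening element in the 250 bases before their start, and the others apart from GRP7 had none. At least 1 element was held by 2.36% of 27443 such windows, and bases farther upstream were not searched.

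Genes with evening elements are described with GRP7 and GRP8 left out. Of 430 tested genes with at least 1 element, 149 rose on water (34.7%) and 36 fell (8.37%), at an edgeR adjusted p under 0.05, beside 12.1% and 12.4% of 16409 tested genes with a window. Of 18 tested genes with at least 2 elements 9 rose and none fell. The median log2 change was 0.23 with at least 1 element, 0.38 with at least 2 and -0.0079 over all. Between ethanol and water plants before freezing, 32 of the 430 were higher (7.44%) and 21 were lower (4.88%), beside 3.91% and 6.03% of all genes. Of the 18 genes 7 were higher and 1 was lower.

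The other genes with 3 elements, which are also counted among the 18, were singled out after their values were seen. BBX8, a B-box protein gene, went from 4.16 ± 1.05 CPM in starting plants to 19.8 ± 2.31 CPM in water plants (SD, n = 8), a log2 change of 2.24 ± 0.13 (SE) with an edgeR adjusted p of 3.39e-20. It was 29.4 ± 2.37 CPM in ethanol plants, higher than in water plants by 0.57 ± 0.11 (edgeR adjusted p = 0.000189). AIF1, a helix-loop-helix protein gene, went from 10.9 ± 2.12 to 35.7 ± 7.40 CPM on water (1.73 ± 0.13, edgeR adjusted p = 7.03e-17). It was higher in ethanol than in water plants by 0.36 ± 0.11 (edgeR adjusted p = 0.0308). After freezing the ethanol difference was 0.38 ± 0.11 for AIF1 (edgeR adjusted p = 0.0314) and 0.27 ± 0.11 for BBX8, which did not pass the test (edgeR adjusted p = 0.159).

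**Figure D4:**
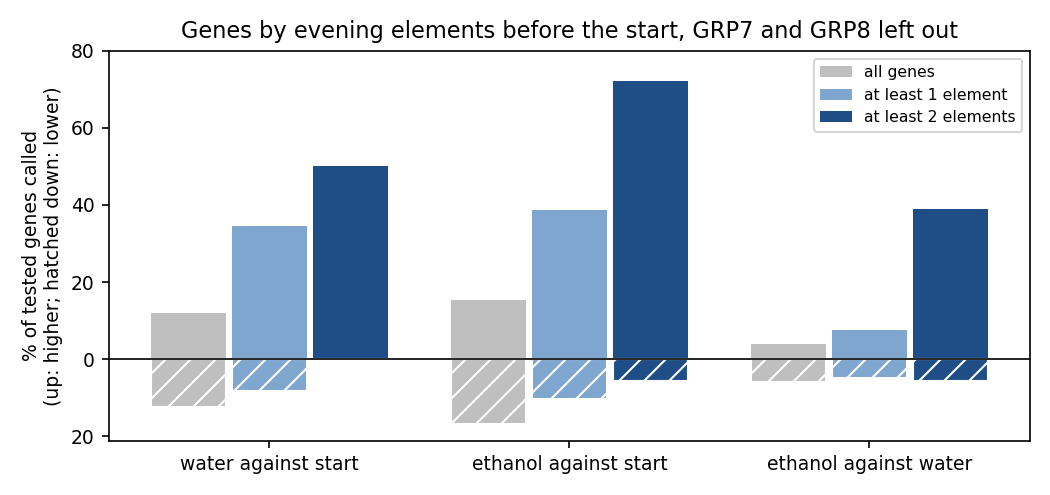
Percent of tested genes called higher (up) or lower (hatched, down) at an edgeR adjusted p under 0.05, for all genes and for genes with at least 1 or at least 2 evening elements in the 250 bases before the start, GRP7 and GRP8 left out. On water 34.7% of genes with at least 1 element rose, beside 12.1% of all.

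Most clock genes were called over the 6 days. Of 17 tested genes 7 rose and 9 fell on water, where 12% of all tested genes rose and 12.5% fell. The evening genes PRR5 (3.26 ± 0.15, log2, SE) and ELF4 (3.74 ± 0.18) rose, as did GI, TOC1, ELF3, PRR7 and LUX (PCL1 in the annotation). CCA1, a morning MYB factor known to bind evening elements, fell from 57.2 ± 3.68 to 7.03 ± 2.74 CPM (SD, n = 8; -3.04 ± 0.17), and LNK3 (AT3G12320), a coactivator gene, fell by 2.62 on the log2 scale (SE 0.12). LHY, LNK1 (AT5G64170), LNK2 (AT3G54500), LNK4 (AT5G06980), RVE1, RVE8 and LCL1 fell as well. On ethanol 7 rose and 9 fell, where 15.4% of all tested genes rose and 16.6% fell.

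With ethanol 3 of 17 clock genes were higher than with water before freezing, PRR5 (0.39 ± 0.12), GI (0.40 ± 0.11) and ELF4 (0.93 ± 0.14), where 4.04% of all genes were higher and 6% lower. After freezing ELF4 alone was higher with ethanol (0.81 ± 0.14), where 2.41% were higher and 2.83% lower. Freezing was followed by higher PRR7, GI and LNK1 counts after water (0.48 ± 0.094, 0.65 ± 0.11 and 0.42 ± 0.12), where 7% of genes rose and 6.96% fell. The same 3 genes were higher after ethanol (0.31 ± 0.093, 0.45 ± 0.10 and 0.52 ± 0.12), where 4.1% rose and 5.68% fell. With the length trend removed none of the 17 was higher after freezing, and LUX was lower after water (-0.66) and after ethanol (-0.57). For clock genes too, neither ethanol nor freezing can be told apart from any change in sampling hour.

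The relatives of GRP7 and GRP8 are given by the same calls. The list held 12 other proteins with an RNA-recognition motif or a cold shock domain and a glycine-rich region, all tested. On water 1 rose and 4 fell, where 12% of all tested genes rose and 12.5% fell. GR-RBP2 rose from 136 ± 12.0 to 184 ± 13.5 CPM (SD, n = 8; 0.44 ± 0.066, SE, edgeR adjusted p = 3.37e-07). The cold shock domain gene CSDP1 (-0.65 ± 0.12) and the zinc-finger genes AtRZ-1c (-0.50 ± 0.11) and ATRZ-1A (-0.25 ± 0.073) fell, and so did GRP2, also called CSP2. On ethanol GR-RBP2 rose and 6 fell, GRP4 (-0.73 ± 0.086), CSDP1 (-0.68 ± 0.12), GRP2 (-0.48 ± 0.068) and ATRZ-1A (-0.46 ± 0.074), with GR-RBP3 and AtRZ-1c, where 15.4% of all tested genes rose and 16.6% fell. The median change of the 12 was -0.21 on water and -0.36 on ethanol, and over all tested genes -0.0096 and -0.0029.

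Ethanol and water plants differed in several of these relatives. Before freezing 3 of 12 were lower with ethanol and 1 was higher, where 6% of all tested genes were lower and 4.04% higher. GRP4 went from 54.4 ± 5.42 CPM in water plants to 38.2 ± 5.11 in ethanol plants (-0.51 ± 0.086, edgeR adjusted p = 1.79e-05). GR-RBP3 (-0.60 ± 0.14) and GRP2 (-0.27 ± 0.068) were lower as well, and GRP2B, a cold shock domain gene, was higher (0.37 ± 0.11). After freezing GRP4 (-0.35 ± 0.085) and GRP2 (-0.31 ± 0.068) were lower with ethanol, where 2.83% of all genes were lower. Freezing after water was followed by a lower GR-RBP5 (-0.24 ± 0.080), where 6.96% of all genes fell. With the length trend removed GR-RBP5 had an edgeR adjusted p of 0.579, and ATRZ-1A was called lower instead (-0.33, edgeR adjusted p = 0.00685). Freezing after ethanol was followed by a higher GR-RBP3 (0.51 ± 0.14), where 4.1% of all genes rose.

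**Figure D5:**
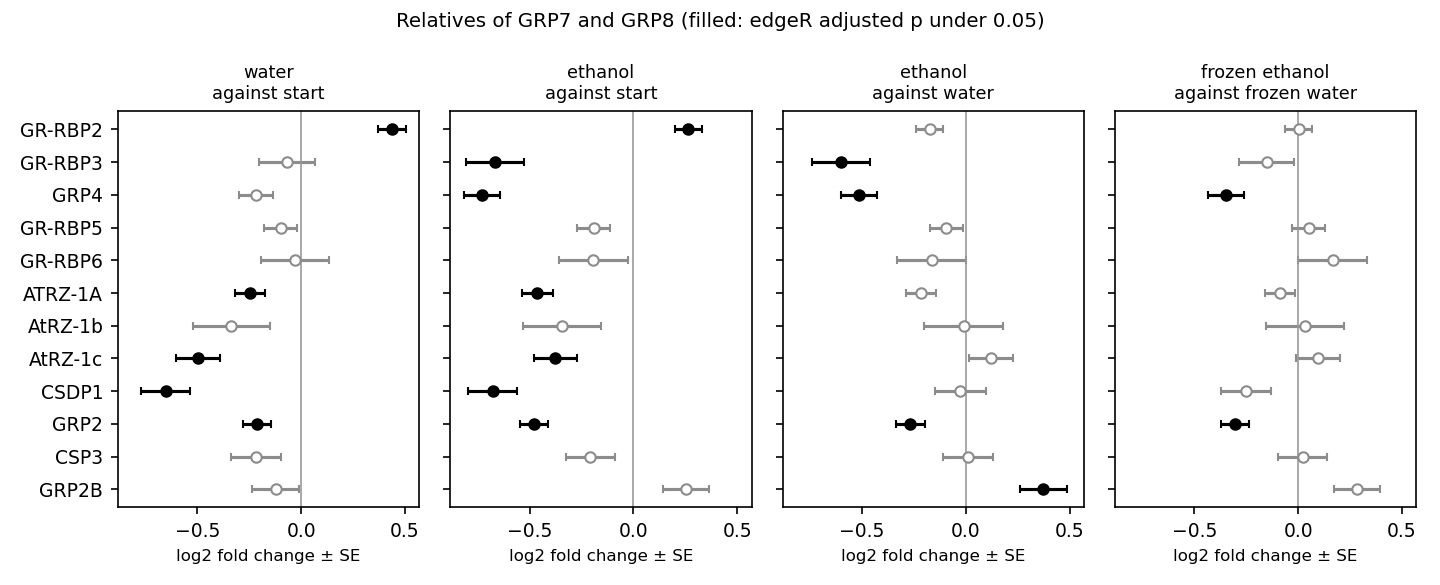
Log2 fold changes ± SE of 12 relatives of GRP7 and GRP8 in 4 comparisons, filled where the edgeR adjusted p is under 0.05. GR-RBP2 is higher on water by 0.44, and GRP4 and GRP2 are lower with ethanol before and after freezing.

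Among transcripts known in Arabidopsis as bound by GRP7 or changed when it is overexpressed, 3 of 6 rose on water and none fell, beside 12% and 12.5% of all tested genes. On ethanol 3 rose and 1 fell, beside 15.4% and 16.6%. The list mixes bound transcripts with changed ones, and the direction of the known effects was not compared with these changes. DRM2 (AT2G33830), a dormancy-associated gene, went from 16.6 ± 4.18 CPM in starting plants to 269 ± 32.8 in water plants and 382 ± 91.8 in ethanol plants (SD, n = 8), a change of 4.05 ± 0.16 on water. Its homologue DYL1, also called DRM1, went from 8.38 ± 1.80 to 53.4 ± 13.7 and 111 ± 14.3 CPM. With ethanol before freezing DYL1 was higher than with water by 1.07 ± 0.13 and DRM2 by 0.50 ± 0.13. Both fell on freezing after ethanol, DRM2 by 1.02 and DYL1 by 0.97 on the log2 scale (SE 0.13 each). After water DRM2 was lower (-0.45 ± 0.13) and FLS2, the flagellin receptor gene, higher (0.61 ± 0.22), with edgeR adjusted p-values of 0.394 and 0.788 when the length trend was removed.

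FLS2 also rose on ethanol (0.87 ± 0.22), and EFR, another immune receptor gene, was called in no comparison by edgeR. The defence gene PR1, counted among those that rose on water, was higher there by 1.91 ± 0.71 (edgeR adjusted p = 0.0401). Its median, however, went from 24.8 CPM in starting plants to 13.7 CPM in water plants, whose libraries ranged from 2.37 to 814 CPM. Without water replicate 6 and ethanol replicate 7 the difference on water was 0.16 (edgeR adjusted p = 0.893). On ethanol PR1 fell by 2.12. It was lower with ethanol than with water before freezing (-4.03 ± 0.84, and -2.64 without that pair of libraries) and after freezing (-2.61).

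Of 11 tested genes of the autonomous flowering pathway and its targets, SOC1 (AGL20 in the annotation), a floral integrator, was the 1 gene that rose on water (0.79 ± 0.098), where 12% of all tested genes rose, and none fell. On ethanol SOC1 (0.90 ± 0.098), the floral repressor gene SVP (0.29 ± 0.063) and FCA (0.59 ± 0.23) rose, 3 of 11 beside 15.4% of all tested genes, with an adjusted p of 0.103 for FCA from edgeR when the length trend was removed. FLC, the floral repressor that the pathway acts on, averaged 5.29 ± 1.97 CPM in starting plants and 3.89 ± 2.67 in water plants, a difference of -0.42 ± 0.36 with an edgeR adjusted p of 0.463. SVP was higher in ethanol than in water plants before freezing (0.35 ± 0.063). Freezing was followed by higher REF6 (0.99) and SVP (0.18) after water and by higher REF6 (0.70) and FVE (0.38) after ethanol, none of them called with the length trend removed. FPA, of the autonomous pathway, was then lower after water (-0.61) and after ethanol (-0.50).

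Of 13 genes for RNA-binding proteins and helicases with cold roles, nonsense-mediated decay, cap binding and the nuclear import of GRP7, 2 rose on water and none fell, beside 12% and 12.5% of all tested genes. They were CP29 (0.64 ± 0.071), a chloroplast RNA-binding protein gene, and UPF3 (0.61 ± 0.18), of nonsense-mediated decay. On ethanol CP29 and UPF3 rose, and the chloroplast gene RBP31 (-0.33 ± 0.057) and the helicase gene PRH75 (-0.47 ± 0.091) fell, beside 15.4% of all genes that rose and 16.6% that fell. With ethanol RBP31 (-0.19 ± 0.057) and PRH75 (-0.37 ± 0.092) were lower than with water before freezing and RCF1 (AT1G20920), a helicase gene, was higher (0.55 ± 0.17), beside 6% of all genes lower and 4.04% higher. Freezing after water was followed by higher counts of 5 of 13, where 7% of all genes rose, among them TRN1, the import receptor (0.56 ± 0.12), AT2G39260 (0.58 ± 0.16), PRH75 (0.26) and RCF1, and 0 of 13 were called with the length trend removed. Freezing after ethanol was followed by higher PRH75 (0.45 ± 0.090) and TRN1 (0.36 ± 0.12), where 4.1% of all genes rose, and PRH75 alone of these was called with the length trend removed.

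After freezing 0 of the 13 and 0 of the 11 flowering genes differed between ethanol and water plants by edgeR's adjusted p, with 3 and 1 at an unadjusted p under 0.05. For the difference of both freezing effects, where 0.133% of all tested genes were called, 0 genes of these 5 lists were called by edgeR. At an unadjusted p under 0.05 there were 1 of the relatives, 1 flowering gene, 2 of the GRP7-related transcripts, 0 clock genes and 0 genes of RNA handling.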

How the data were processed

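Messenger RNA was measured in 40 libraries, grouped by title. The deposited counts are whole numbers per gene that the authors did not normalize. The submitters' processing notes name bcl2fastq, Trimmomatic, HISAT2, featureCounts, DESeq2 and TAIR10, without settings. A second table deposited by the authors holds a signal, counts over a size factor per library. The ratio of GRP8 to GRP7 was recomputed from it, but the size factor cancels within a library, so this is no separate check.

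Of 27416 genes, 16579 passed filterByExpr and were tested in edgeR 4.0.16 (R 4.3.3) with TMM, a mean per group over all libraries, the quasi-likelihood F test and Benjamini-Hochberg adjustment (called under 0.05). An SE is the size of the log2 fold change over the root of F. In the smallest library 3 counts equal 1.43 CPM and in the largest 0.326, which covers counting error only. Chi-square per degree of freedom between replicates was at least 3.55, above sampling noise. Each library was counted as 1 sample, though this value cannot show that replicates were separate plants. Exact permutation tests were run in Python 3.11.15. Names, lengths and sequences came from RefSeq TAIR10.1 (26719 identifiers matched), and coding sequences were aligned with MAFFT 7.526. The edgeR procedure was tested on simulated data. GRP7, GRP8 and the lists were chosen with earlier results of these data known. Values are given for up to 4 genes per list and comparison, those with the smallest p, and more where a count is spelled out, and for the 6 genes most like GRP7 or GRP8. Alternatives were RLE scaling, no filter, DESeq2 1.42.0, fitting compared groups alone, a replicate block, removal of the length trend (natural spline, 4 degrees of freedom), thinning to 2098593 counts, leaving out organelle genes, and leaving out libraries. The values of 1 listed gene of RNA handling are not reported here.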

Additional observations from a re-analysis of the deposited data

How the results depend on the processing

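Under 9 alternatives in 7 comparisons, values for GRP7 moved by less than its pooled SD between replicates (0.156, log2). Those for GRP8 moved by less than its own (0.0947) in 61 of 63 cases. For GRP7 this SD is of the size of its ethanol and freezing differences, so it is a loose bound for them. With the length trend removed, GRP7 for freezing after water moved from -0.21 to -0.058 within it. The exceptions for GRP8 came with the length trend removed, where it stood at -0.057 for freezing after water and turned sign to 0.011 for freezing after ethanol. GRP7 also turned sign there (0.0077). Without division by length the ratio was -1.72 in ethanol and -1.73 in frozen ethanol plants. The correlation in frozen ethanol plants passed the threshold at r = 0.926 without the 2 libraries farthest from the GRP7 median; with the length trend removed it did not (r = 0.786, adjusted exact permutation p = 0.160; rho 0.833, adjusted exact permutation p = 0.0769). The remaining causes of change were not tested.

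Removing the length trend gave 371 called genes beside 2315 for freezing after water, with 1 clock, 1 flowering, 0 RNA-handling and 0 GRP7-related genes, and 741 beside 1621 after ethanol, with 1 clock, 1 flowering and 1 RNA-handling gene. Among the relatives ATRZ-1A was then called after water in place of GR-RBP5. For freezing after water, RLE scaling gave 1 flowering and 3 RNA-handling calls, and no filter and thinning each gave 1 flowering, 3 RNA-handling and 1 GRP7-related call. Fitting only the groups compared gave 1 flowering, 1 GRP7-related and 0 relatives there, and no filter also gave 0 relatives. For freezing after ethanol there was 1 RNA-handling call with no filter, with only the groups compared and with DESeq2, 1 flowering call with no filter, and 0 flowering calls and 0 relatives with thinning. On water 2 flowering genes were called with no filter and with DESeq2. For ethanol after freezing 2 clock genes were called with only the groups compared and with DESeq2, and thinning gave 563 genes beside 870. For the difference of freezing effects no filter gave 41 and DESeq2 46 genes beside 22, and 1 GRP7-related gene was called with RLE scaling, no filter, DESeq2, the length trend removed and organelle genes left out.

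Equal replicate numbers did not pair the samples (at most 1 of 8 pairs in a comparison correlated above 0.1, range -0.062 to 0.325). With the replicate number as a block, GRP7 stood at 3.15 on water, the difference of freezing effects had 36 genes, ethanol after freezing had 0 GRP7-related calls, freezing after water had 1 flowering and 1 GRP7-related call, and freezing after ethanol had 1 RNA-handling call. Leaving out each library in turn gave 11 to 61 genes for the difference of freezing effects, over 1.5 times from 22 without water 1, 2, 3, 5 or 6, ethanol 4, 6, 7 or 8, frozen water 4, 5 or 6 and frozen ethanol 3, 4 or 5. It gave 556 to 1089 for ethanol after freezing, below 870 by over 1.5 times without frozen ethanol 2 or 6. GRP7 on water stayed at 3.11 to 3.24 and GRP8 at 1.52 to 1.57. Leaving out water replicate 6 and ethanol replicate 7 together, chosen after seeing the data, gave 42 genes for the difference, 1 flowering and 1 GRP7-related call for freezing after water and 1 RNA-handling call after ethanol.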

Other observations

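Once group means were removed, the genes that varied most closely with GRP7 over the 40 libraries were ACD32.1 (r = 0.642), AT4G16770, of an oxygenase family (0.624), and PP2-A12 (0.618). For GRP8 they were BLOS1 (0.619), AT2G38010, a ceramidase gene (0.611), and AT1G67870, annotated as a glycine-rich protein (0.590). GRP7 and GRP8 had r = 0.417 with each other by this measure, which made GRP8 the 105th most like GRP7 among 8788 other genes and GRP7 the 113th most like GRP8. These values are descriptions over libraries that share their scaling, and the genes were picked as the highest of many.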
